A study of Danio rerio with 14 samples.

Results

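The genes described here hold epithelial cells to one another: the cadherins cdh1 and cdh17, the catenins ctnnb1 and ctnna1, the nectin nectin3b, the adhesion molecule epcam, and the desmosome or plakin genes jupa, dspa, pkp3a and ppl. They were chosen by symbol, 10 names out of a count table of 32520 zebrafish genes, of which 29201 had a symbol. A name in the symbol table was found for 8 of them. The symbols jupa and dspa were not in that table, which instead gives JUP to 2 identifiers (ENSDARG00000070787 and ENSDARG00000059067) and DSP to 2 others (ENSDARG00000022309 and ENSDARG00000076673). The sources used here do not say which of each pair is jupa or dspa, so all 4 are described by identifier, which makes 12 genes. All 8 members and all 4 paralogs passed the filter on low counts, and reads of near-identical paralogs may have been split by the counting.

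Adherens junctions join neighbouring epithelial cells through cadherins, whose tails bind beta-catenin, which in turn binds alpha-catenin and the actin cytoskeleton. Desmosomes are a separate kind of junction: desmosomal cadherins are tied to keratin filaments through plakoglobin, plakophilins and desmoplakin. In the gut these junctions keep the sheet of absorptive cells intact, and in humans loss of EPCAM causes congenital tufting enteropathy, a failure of the intestinal epithelium.

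Poly-A RNA of the intestine was sequenced in 14 libraries. Of these, 6 have the genotype Tg(Xla.Eef1a1:Cau.Asip1)iim04, here called ASIP. The other 8 are labelled Tubingen, a laboratory strain, and their titles begin with WT, read here as wild type. By the usual naming, the construct puts goldfish asip1, which encodes the melanocortin receptor antagonist agouti, under a frog promoter of Eef1a1, which is not restricted to the gut. The titles end in the letter M or H, which no label explains, so the groups are ASIP M (3 libraries), ASIP H (3), WT M (4) and WT H (4). Each library is called by the number in its title. No treatment, age or sex is given in the labels. They do not say that libraries came from separate fish or single fish. The p-values set group differences against the spread of these samples, which may in part be technical, so they may not carry over to fish. The strain behind the transgene is not named, so transgene and background cannot be told apart, and the goldfish gene has no row of its own in the table.

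Total counts were 11792225 to 14091791 in ASIP and 9847910 to 13727372 in WT libraries. The labelled tissue was checked against 22 enterocyte markers, whose mean log2 CPM (counts divided by library totals in units of 1e6 reads, scaled with TMM factors) was 7.21 to 8.89 in 12 libraries. It was 1.22 in WT H replicate 6, where 5 of the 22 were at 0, and 3.07 in WT H replicate 7, where 1 was at 0. Oocyte transcripts were held by 4 libraries, a count made after the values were seen. A list of 20 oocyte genes took 2.1% of counts in WT H replicate 6, 0.370% in WT H replicate 7, 0.0955% in WT H replicate 8 and 0.0346% in ASIP H replicate 13, with no gene of the list at 0. In the other 10 libraries it took at most 0.000772%, with 2 to 16 genes at 0. Fits without the 4 libraries keep only replicate 5 in WT H and replicates 14 and 16 in ASIP H. Only effect sizes are given for these fits. Smooth muscle markers had a mean log2 CPM of 3.30 in WT H replicate 6 and 6.03 in WT H replicate 7, against 4.53 to 6.38 elsewhere, and leukocyte markers 1.35 and 2.97 against 3.62 to 4.48. The 9 epithelial keratins and claudins had a mean log2 CPM of 5.63 in WT H replicate 6 and 8.30 in WT H replicate 7, against 8.15 to 8.84 elsewhere. Vitellogenins, yolk precursors made in the liver, took 7.95% to 21.0% of counts in ASIP H and 6.18% in WT H replicate 8. Goblet cell markers had 1.31 and 2.98 against 2.7 to 3.44. WT H replicate 6 was thus below the other 12 libraries in all 5 of these lists of intestinal cells, and WT H replicate 7 in the enterocyte and leukocyte lists and not in the other 3. Endothelial markers, a further list, had 2.16 in WT H replicate 6, inside the 1.89 to 3.42 of the other 12, and 4.58 in WT H replicate 7, above it. The genotype log2 fold changes of the 12 genes, averaged over the letters, are given below with and without these 2 libraries. For most other genes named they are given from all 14 libraries only. The part that these markers play in the differences was not tested.

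**Figure D1:**
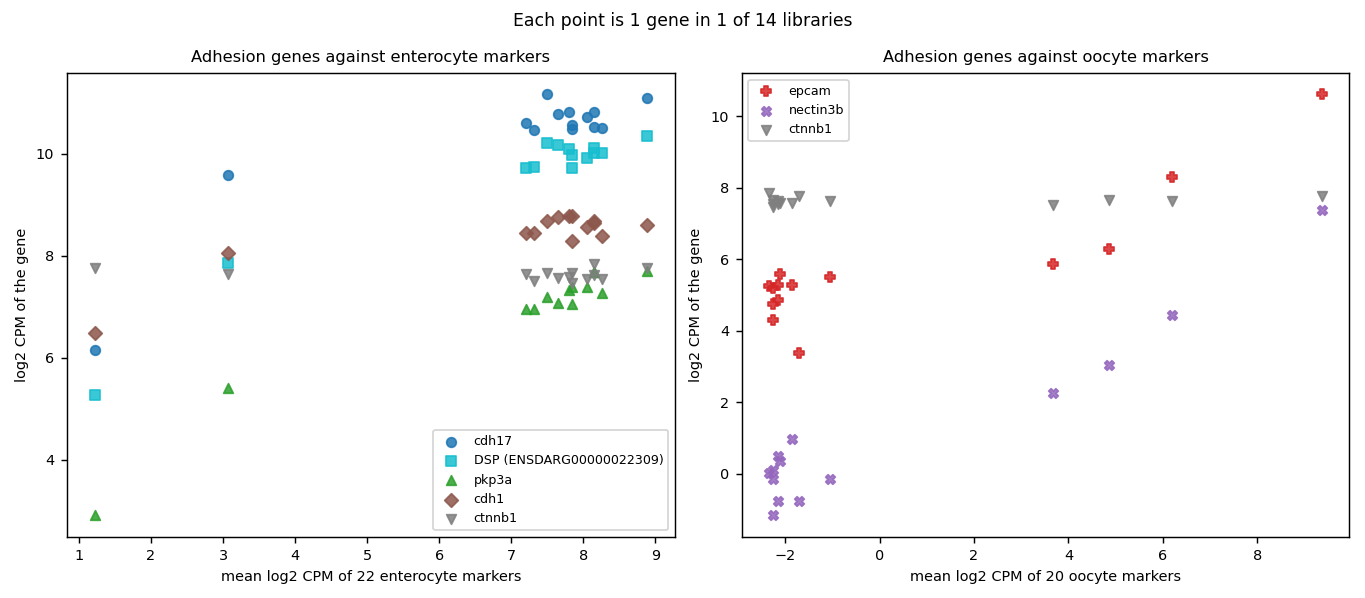
Adhesion genes against marker lists in the 14 libraries. Each point is 1 gene in 1 library. Its log2 CPM is set against the mean log2 CPM of 22 enterocyte markers or of 20 oocyte markers. WT H replicates 6 and 7 lie far below the rest in the enterocyte mean (1.22 and 3.07 against 7.21 to 8.89). They lie above all others in the oocyte mean (9.37 and 6.19).

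Across genes, levels were compared per length as FPKM, the deposited counts divided by gene length and library total, over all 14 libraries. The cadherin cdh17 had the highest median, 398 FPKM, and was above the DSP gene ENSDARG00000022309 (134 FPKM) in 14 of 14 libraries. That gene was above cdh1 (75.7 FPKM) in 12 of 14, the exceptions being WT H replicates 6 and 7. A middle tier followed, with ctnnb1 at 58.3, JUP (ENSDARG00000070787) at 57.5 and ctnna1 at 55.6 FPKM. These neighbours did not separate: ctnnb1 was above JUP in 3 of 14 libraries and JUP above ctnna1 in 10 of 14. Below them, pkp3a had a median of 34.3, ppl of 31.9 and epcam of 26.7 FPKM, with pkp3a above ppl in 5 of 14 and ppl above epcam in 9 of 14. The other DSP gene (ENSDARG00000076673) had 5.67 FPKM, below epcam in 14 of 14 libraries. The lowest medians were those of nectin3b (0.392 FPKM) and the other JUP gene (0.355 FPKM). Each paralog pair thus had a more abundant and a less abundant gene.

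The first question is whether the transgenic intestine differed from wild type in these genes, averaged over the letters. In edgeR's quasi-likelihood test with Benjamini-Hochberg adjustment over 18619 genes, 0 of 8 members passed an adjusted p of 0.05, where 4.21% of all tested genes did. At an unadjusted p under 0.05 there were 3 of 8 (epcam, nectin3b and ppl), beside 19.1% of all genes, and DESeq2 called 2 of 8 (epcam and nectin3b), beside 9.52%. Both were called lower in ASIP, as 5.3% of all genes were in that test. Of the 4 JUP and DSP genes, 0 passed in either tool and 1 had an unadjusted p under 0.05. The median log2 fold change of the 8 members was 0.06, with 5 positive and 3 negative, against -0.11 over all genes tested. None of the 8 separated ASIP from WT libraries completely, as 3.72% of all genes did. With WT H replicates 6 and 7 left out, 0 of 8 passed in edgeR beside 7.88% of all genes, and 0 of 8 had an unadjusted p under 0.05 beside 22%. Without the 4 libraries with oocyte transcripts both counts were again 0 of 8, beside 4.04% and 18.7%.

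The classical cadherin cdh1, E-cadherin, had 378, 335 and 398 CPM in the ASIP M libraries and 349, 389 and 349 CPM in ASIP H. In WT M it had 435, 410, 436 and 440 CPM. In WT H, replicates 5 to 8 had 412, 89.5, 266 and 312 CPM. The WT M libraries had the highest mean and the smallest spread (430 ± 13.8 CPM, SD, n = 4) and were all above the 3 ASIP M libraries (370 ± 32.3, n = 3), whereas the WT H libraries reached from among the highest to the lowest. The genotype log2 fold change was 0.10 (SE 0.28, 95% interval -0.51 to 0.71, adjusted p 0.856). Without WT H replicates 6 and 7 it was -0.10 (SE 0.11, interval -0.35 to 0.16), so its direction depended on those libraries and its interval narrowed.

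LI-cadherin, encoded by cdh17, is a cadherin of the intestinal lining with a short cytoplasmic tail. It had 1680, 1460 and 1812 CPM in ASIP M and 1417, 2195 and 1562 CPM in ASIP H. WT M had 1750, 2295, 1515 and 1803 CPM, and WT H 1472, 70.9, 766 and 1441 CPM. Groups overlapped throughout, and both exceptional values were in WT H. Its genotype log2 fold change was 0.36 (SE 0.48, interval -0.68 to 1.40, adjusted p 0.694), and 0.05 (SE 0.17) without the 2 libraries.

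Beta-catenin, encoded by ctnnb1, links cadherin tails to alpha-catenin and also carries the canonical Wnt signal in the nucleus. It was the flattest of the members: 202 ± 24.7 CPM (n = 3) in ASIP M, 199 ± 17.2 (n = 3) in ASIP H, 190 ± 11 (n = 4) in WT M and 204 ± 9.54 (n = 4) in WT H. WT H replicates 6 and 7 had 218 and 199 CPM, inside the span of the other libraries, 176 to 230 CPM. The genotype log2 fold change was 0.02 (SE 0.16, interval -0.32 to 0.36, adjusted p 0.948), and 0.05 (SE 0.11) without WT H replicates 6 and 7.

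Alpha-catenin, encoded by ctnna1, had 190, 138 and 207 CPM in ASIP M and 202, 168 and 233 CPM in ASIP H. In WT M it had 224, 248, 221 and 218 CPM, all above ASIP M, and in WT H 243, 322, 242 and 182 CPM. The highest value was that of WT H replicate 6. Its genotype log2 fold change was -0.33 (SE 0.19, interval -0.75 to 0.09, adjusted p 0.364), and -0.20 without WT H replicates 6 and 7.

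Nectins are immunoglobulin-like adhesion molecules that bind afadin and help to seed adherens junctions. In this tissue nectin3b was scarce, with 0.735, 1.24 and 0.846 CPM in ASIP M, 4.66, 0.417 and 0.424 CPM in ASIP H, and 1.81, 0.278, 0.907 and 1.12 CPM in WT M. In WT H the same gene had 0.739, 167, 21.5 and 8.10 CPM, from 7 to 1842 reads. The 4 highest values were those of the 4 libraries with oocyte transcripts, in the order of their oocyte share. Its genotype log2 fold change was -2.44 (SE 0.99, interval -4.58 to -0.30, adjusted p 0.209). Without WT H replicates 6 and 7 it was -0.70 (SE 0.75, adjusted p 0.645).

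Epcam is a surface glycoprotein of epithelia that associates with claudins; in zebrafish embryos it is needed for normal epiboly. It had 36.2, 29.0 and 37.7 CPM in ASIP M, 58.3, 10.3 and 38.8 CPM in ASIP H, and 38.4, 19.7, 26.7 and 48.3 CPM in WT M. WT H replicates 5 to 8 had 44.9, 1566, 317 and 78.3 CPM. As with nectin3b, the 4 libraries with oocyte transcripts held the 4 highest values in the order of their oocyte share, and the other 10 lay between 10.3 and 48.3 CPM. The genotype log2 fold change was -1.88 (SE 0.71, interval -3.42 to -0.35, adjusted p 0.181). It was -0.36 (SE 0.38, interval -1.20 to 0.48, adjusted p 0.641) without WT H replicates 6 and 7, and -0.98 without replicate 6 alone.

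**Figure D2:**
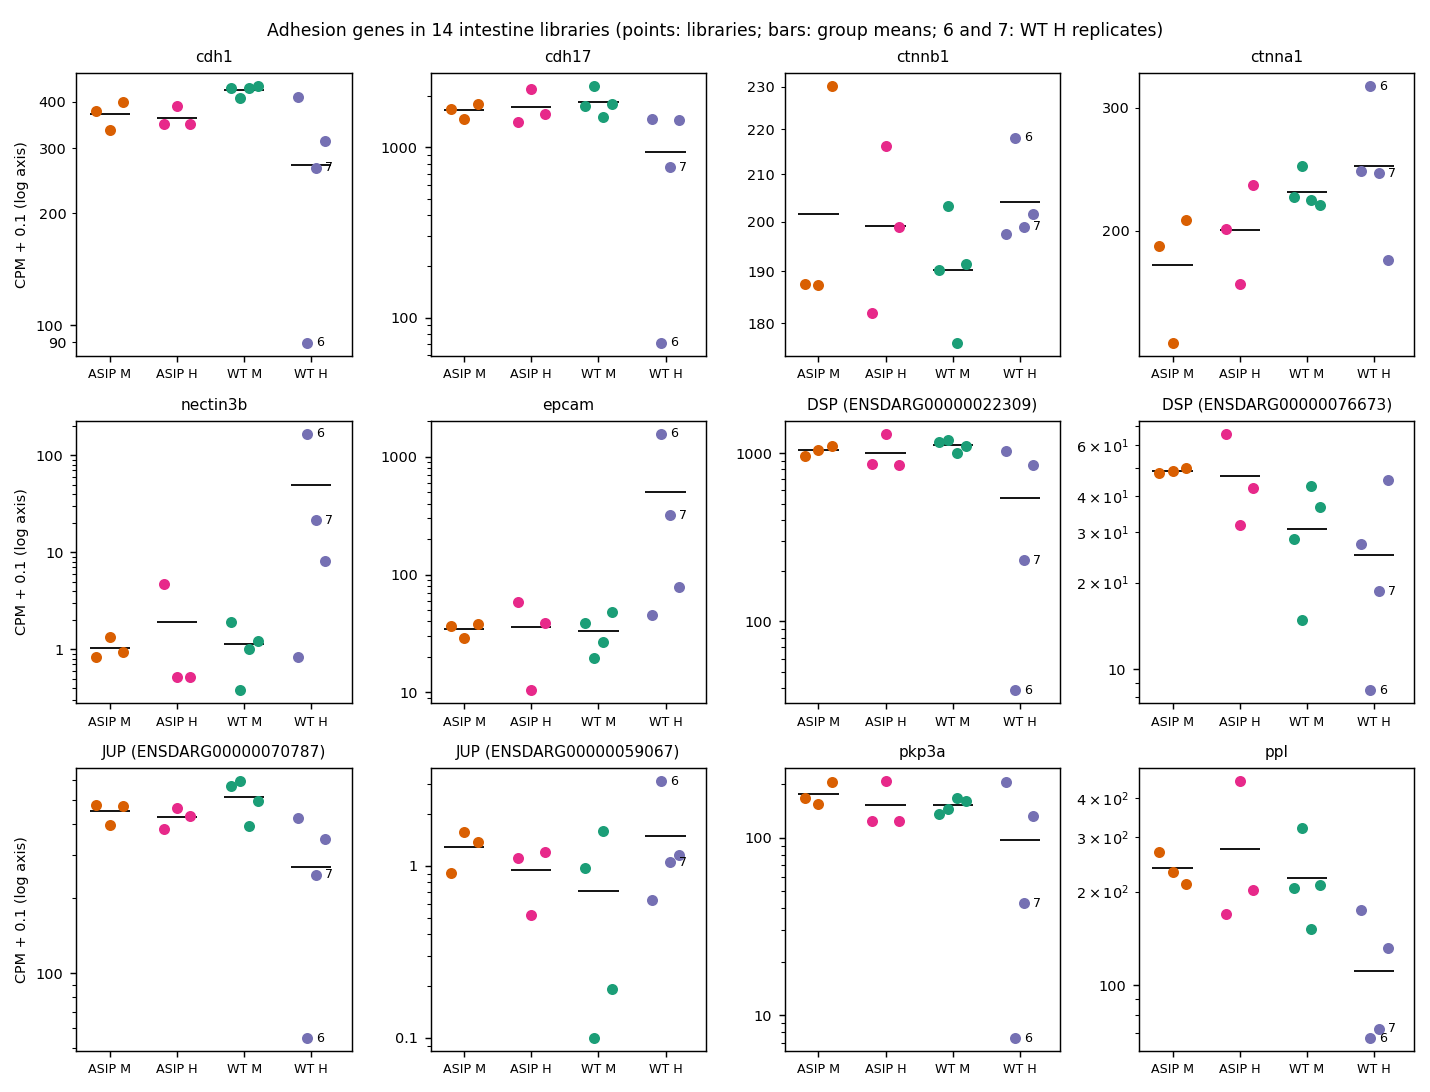
Level of each of the 12 genes in every library. Points are libraries in CPM plus 0.1 on a log axis that differs between panels, bars are group means, and 6 and 7 mark the WT H replicates; these 2 points are low for cdh17, DSP (ENSDARG00000022309) and pkp3a, high for epcam and nectin3b, and among the others for ctnnb1.

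Plakoglobin (JUP) binds both desmosomal and classical cadherins. The abundant JUP gene (ENSDARG00000070787) had 448 ± 45.2 CPM (n = 3) in ASIP M, 424 ± 41.4 (n = 3) in ASIP H, 511 ± 89.4 (n = 4) in WT M and 269 ± 159 (n = 4) in WT H, where replicates 6 and 7 had 54.8 and 249 CPM. Its genotype log2 fold change was 0.23 (SE 0.35, adjusted p 0.732), and -0.02 without these 2. The scarce gene (ENSDARG00000059067) had 0 to 33 reads per library and at most 3.0 CPM, in WT H replicate 6, too few to show a small difference (log2 fold change 0.11, adjusted p 0.941, and 0.51, SE 0.71, without the 2 libraries).

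Desmoplakin (DSP) ties the desmosome to keratin filaments. Its abundant gene (ENSDARG00000022309) had 965, 1037 and 1107 CPM in ASIP M and 858, 1305 and 845 CPM in ASIP H. It had 1159, 1192, 1005 and 1097 CPM in WT M, and 1035, 38.7, 230 and 849 CPM in WT H. All libraries but WT H replicates 6 and 7 had 845 CPM or more. The genotype log2 fold change was 0.40 (SE 0.51, adjusted p 0.684) and 0.00 without them.

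The scarcer DSP gene (ENSDARG00000076673) had 48.0, 48.6 and 49.7 CPM in ASIP M, all above the WT M libraries, which had 28.2, 14.8, 43.2 and 36.4 CPM. Complete separation with ASIP M higher was seen for 9.83% of all genes. ASIP H had 65.6, 31.6 and 42.6 CPM and WT H 27.0, 8.35, 18.6 and 45.2 CPM, which overlapped. Its genotype log2 fold change was 0.79 (SE 0.34, interval 0.05 to 1.53, adjusted p 0.235), and 0.53 (SE 0.28, adjusted p 0.302) without WT H replicates 6 and 7.

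Plakophilins are armadillo-repeat proteins of the desmosomal plaque. Among them pkp3a had 175 ± 26.3 CPM (n = 3) in ASIP M, 152 ± 48.3 (n = 3) in ASIP H and 152 ± 14.6 (n = 4) in WT M. In WT H its values were 206, 7.36, 42.5 and 132 CPM, so that this group held a library near the highest as well as the 2 lowest. Its genotype log2 fold change was 0.42 (SE 0.50, adjusted p 0.651), and 0.04 without the 2 libraries.

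Periplakin, encoded by ppl, is a plakin that links keratin filaments to desmosomes and the plasma membrane. ASIP M had 269, 232 and 212 CPM, ASIP H 170, 453 and 202 CPM, WT M 206, 322, 151 and 209 CPM, and WT H 174, 67.6, 72.4 and 131 CPM. The highest value was in ASIP H replicate 14 and the 3 lowest were in WT H. The genotype log2 fold change was 0.70 (SE 0.31, interval 0.04 to 1.36, adjusted p 0.236). It was 0.48 (SE 0.27, adjusted p 0.335) without WT H replicates 6 and 7 and 0.44 without ASIP H replicate 14.

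**Figure D3:**
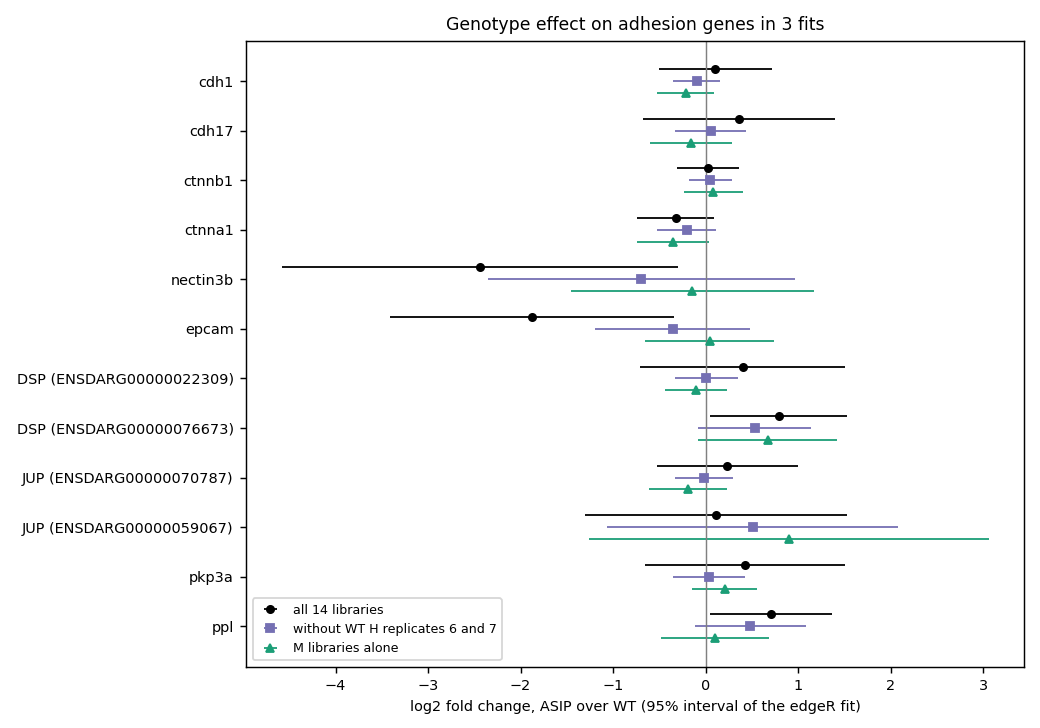
Genotype log2 fold changes of the 12 genes with 95% intervals, from all 14 libraries, without WT H replicates 6 and 7, and from the M libraries alone. Values above 0 are higher in ASIP; epcam moves from -1.88 to -0.36 and nectin3b from -2.44 to -0.70 when the 2 libraries are left out.

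Within the M libraries enterocyte markers were present throughout, with a mean log2 CPM of 8.05 to 8.26 in ASIP M and 7.50 to 7.85 in WT M. Of 21 tested, 18 were positive for ASIP M against WT M (median log2 fold change 0.39), beside 48.9% of all genes, and 0 passed. With the M libraries fitted alone, 1 of the 21 passed, beside 4.32% of all genes. The oocyte list took at most 0.000277% of counts in the M libraries. Liver markers took 0.0475% to 2.98% of counts there. Exocrine pancreas markers took 0.12% to 2.89%, with both the lowest and the highest share in WT M. All 12 tested pancreas markers were positive for ASIP M against WT M, with a median log2 fold change of 1.02, and 0 passed. The part that enterocyte, liver or pancreas transcripts play in the adhesion genes was not tested. In the M comparison 0 of 8 members passed in edgeR, beside 0.956% of all genes. None had an unadjusted p under 0.05 (7.97% of all genes), and DESeq2 called none (3.18%). Complete separation of ASIP M from WT M was seen for 2 of 8 members, cdh1 and ctnna1, both lower in ASIP M, and 19.2% of all genes separated as completely, 9.32% lower in ASIP M. A fit of the M libraries alone gave cdh1 -0.22 (SE 0.13, interval -0.52 to 0.09, adjusted p 0.422) and ctnna1 -0.35 (SE 0.17, interval -0.74 to 0.04, adjusted p 0.309). In the same fit epcam was at 0.04 (SE 0.30, interval -0.65 to 0.74), ctnnb1 at 0.08 (interval -0.23 to 0.40) and cdh17 at -0.16 (interval -0.60 to 0.28). Wider than these was the interval of nectin3b, -1.46 to 1.17. In that fit, too, 0 of 8 passed, beside 4.32% of all genes, and 0 of 8 had an unadjusted p under 0.05, beside 19.3%.

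Within the H libraries, 0 of 8 members passed in edgeR, beside 1.15% of all genes. The unadjusted p was under 0.05 for 3 of 8, beside 24.7% of all genes. The log2 fold changes were -3.81 for epcam (SE 1.1, adjusted p 0.110), -4.74 for nectin3b (SE 1.51, adjusted p 0.130) and 1.31 for ppl (SE 0.43, adjusted p 0.136). They were -0.75 (SE 0.58), -1.24 (SE 1.1) and 0.88 (SE 0.42) with WT H replicates 6 and 7 left out. DESeq2 called these 3, beside 11.5% of all genes, with adjusted p of 0.00137, 0.00234 and 0.0361. Without WT H replicate 5, edgeR called epcam (adjusted p 0.0419) and nectin3b (adjusted p 0.0454), beside 5.58% of all genes. Without WT H replicates 6 and 7, 0 of 8 passed, beside 1.99% of all genes, and 0 of 8 had an unadjusted p under 0.05, beside 15.1%. In the H comparison no member separated the genotypes completely, as 13.7% of all genes did.

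The genotype effect in H minus that in M was -3.85 for epcam (SE 1.39, adjusted p 0.667), -4.60 for nectin3b (SE 1.93, adjusted p 0.667) and 1.21 for ppl (SE 0.62, adjusted p 0.667). With WT H replicates 6 and 7 left out it was -0.78 (SE 0.76), -1.09 (SE 1.5) and 0.79 (SE 0.54). In edgeR 0 of 8 members and 0% of all genes passed this test, with 2 of 8 members and 6.9% of all genes at an unadjusted p under 0.05, and DESeq2 called 0 of 8 beside 0.129%. For H against M over both genotypes, edgeR called 0 of 8 members and 0% of all genes, a count over all genes that went from 0 to 173 without WT H replicate 5. An unadjusted p under 0.05 was reached by epcam (1.99, SE 0.70, adjusted p 0.472) and nectin3b (3.26, SE 0.99, adjusted p 0.343), beside 7.78% of all genes. DESeq2 called nectin3b (adjusted p 0.00786), beside 1.85%. Without the 4 libraries with oocyte transcripts the H against M values were -0.02 for epcam and -0.81 for nectin3b. That fit keeps WT H replicate 5 alone in its group. It also takes out the 4 highest values of both genes, so a fall of both H against M values was largely set in advance.

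The 2 libraries low in enterocyte markers split the adhesion genes into 3 sets by their level relative to the median of the other 12 libraries. The desmosomal and cadherin genes were low in WT H replicate 6: DSP (ENSDARG00000022309) at 3.73%, cdh17 at 4.38%, pkp3a at 4.70%, JUP (ENSDARG00000070787) at 12.3%, cdh1 at 22.7% and ppl at 32.5%. In replicate 7 the same genes were at 22.2%, 47.2%, 27.1%, 55.9%, 67.5% and 34.9%. The catenins ctnnb1 and ctnna1 were not low, with ctnnb1 at 112% and 102% and ctnna1 at 152% and 114%. High in both were epcam, 41.1-fold and 8.32-fold, and nectin3b, 191-fold and 24.5-fold. Both libraries therefore had less cdh17 than cdh1 relative to the others, and ctnnb1 and ctnna1, cytoplasmic partners of cdh1, were not below theirs. Plakoglobin, which also binds classical cadherins, was low, as given above for JUP (ENSDARG00000070787). Another catenin gene, CTNND1, is not a member and was chosen after its values were seen. It was at 57.1% and 72.3%, below the range of the other 12 in both libraries. The scarcer DSP gene (ENSDARG00000076673) was at 19.5% and 43.3%, and the scarcer JUP gene (ENSDARG00000059067) at 3.20-fold and 1.02-fold. Of the 8 members 4 were below the range of the other 12, 1 inside and 3 above it in replicate 6, where 35.5% of all genes tested were below and 36.1% above. In replicate 7, 4 members were below, 2 inside and 2 above, where 23.5% of all genes were below and 25.5% above. In bulk tissue, fewer cells of a type and less RNA per cell cannot be told apart.

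The values for replicate 7 depend on scaling, since its TMM factor was 1.57. Scaled by library totals instead, its cdh1 was at 108% and its JUP (ENSDARG00000070787) at 99.6% of the median of the other 12, inside their range. On that scale ctnnb1 and ctnna1 were at 164% and 187%, above the range, while cdh17 (74.4%), pkp3a (43.4%), ppl (54.6%) and DSP (ENSDARG00000022309, 34.4%) stayed below it. In replicate 6 the direction relative to the median was the same under all 3 scalings tried for each of these genes. Its ctnnb1 was inside the range with TMM factors and library totals, and above it with DESeq2 size factors (120%).

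**Figure D4:**
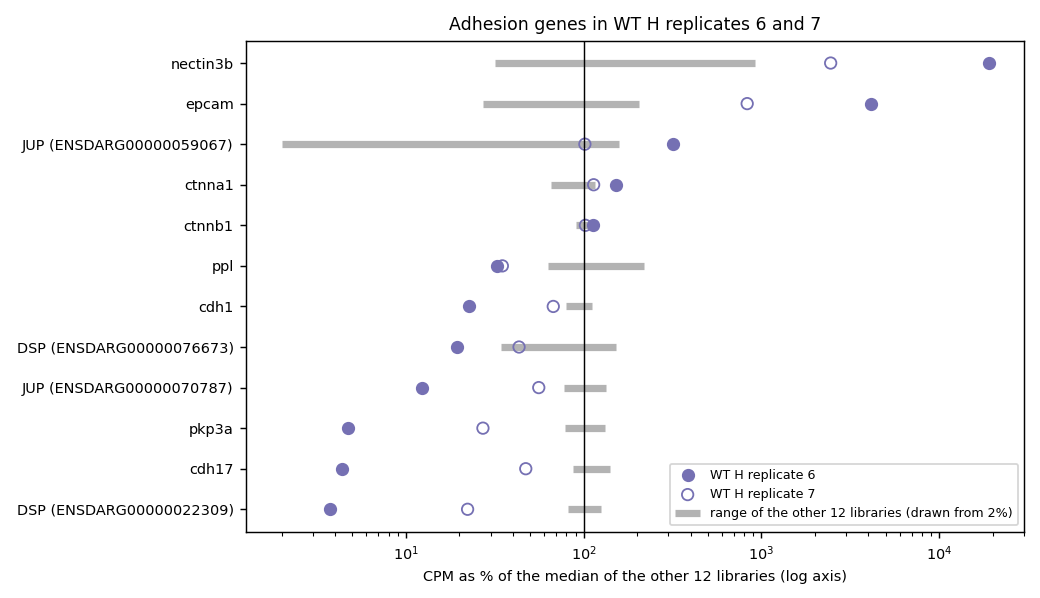
Level of each gene in WT H replicates 6 and 7 relative to the median of the other 12 libraries, on a log axis, with the span of those 12. From DSP (ENSDARG00000022309) at 3.73% in replicate 6 to nectin3b at 191-fold, the genes fall below, at and above the other libraries.

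Ratios of FPKM within a library do not depend on scaling. The ratio of cdh1 to cdh17 was 0.128 to 0.208 in the other 12 libraries, with a median of 0.164, and was 0.909 in WT H replicate 6 and 0.250 in replicate 7. That of ctnnb1 to cdh1 ran from 0.608 to 0.972 in the 12 and was 3.67 and 1.13. That of ctnna1 to cdh1 ran from 0.562 to 0.909 and was 4.89 and 1.24. Desmoplakin (ENSDARG00000022309) to plakoglobin (ENSDARG00000070787) was 1.79 to 2.56 in the 12, and 0.642 and 0.840. The widest shift was that of epcam to cdh17, from a median of 0.0540 and a highest value of 0.135 in the 12 to 54.8 and 1.03. All 5 ratios in both libraries lay outside the range of the other 12. The pairs join genes whose levels in these libraries already differed above, so this outcome was largely set by the choice of pairs. Other gene pairs were not tested.

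In the 10 libraries without oocyte transcripts, the highest value exceeded the lowest 1.30-fold for ctnnb1, 1.31-fold for cdh1, 1.51-fold for JUP (ENSDARG00000070787), 1.54-fold for DSP (ENSDARG00000022309), 1.57-fold for cdh17, 1.67-fold for pkp3a and 1.79-fold for ctnna1. Wider spans were those of ppl (3.0-fold), the scarcer DSP gene (ENSDARG00000076673, 3.37-fold), epcam (4.68-fold) and nectin3b (6.50-fold). The scarcer JUP gene (ENSDARG00000059067) was at 0 in 1 of the 10. Nectin3b rests on 3 to 25 reads in these 10, which leaves its low values imprecise.

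Some relatives of the members, chosen after their values were seen, also stood out in WT H replicates 6 and 7. The second beta-catenin gene, ctnnb2, had 537 and 224 CPM there against 99.3 to 137 CPM in the other 12 libraries. CTNNA2, an alpha-catenin best known from neurons, had 31.5 and 4.76 CPM against 0.104 to 2.1. Of the 21 other adherens junction genes tested, 8 were below the range of the 12 and 7 above in replicate 6, and 4 below and 9 above in replicate 7. The claudin gene cldn7b had 22.8 and 13.3 CPM against 0.313 to 2.89. It was the 1 of 6 tested partners of Epcam above that range in each library, where 3 were below it. Over all genes tested, 35.5% were below and 36.1% above in replicate 6, and 23.5% below and 25.5% above in replicate 7. The epithelial transcription factor gene grhl2a had 26.8 and 2.54 CPM against 0.0934 to 1.35, and was the 1 gene of 13 epithelial regulators above that range in replicate 6, where 9 of the 13 were below it. The desmosomal cadherin gene dsc2l was at 13.8% and 47.6% of the median of the other 12, and the desmosomal cadherin gene dsg2.1 at 28.5% and 116%. Of the 7 other desmosome genes tested, 4 were below the range of the 12 and 1 above in replicate 6. In replicate 7, 3 were below it and 2 above. The intestinal transcription factor gene cdx1b was at 4.79% and 41.5% of the median.

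Other genes of the same junctions were read from 5 lists, with the genotype comparison of edgeR (Benjamini-Hochberg over all genes). Unless said otherwise these values include WT H replicates 6 and 7. In those 2 libraries CTNNBIP1 had 62.1 and 31.6 CPM against 10.4 to 24.5 in the other 12, and snai1a 34.0 and 12.6 against 2.41 to 5.85. Over all genes tested, 4.21% passed, 19.1% had an unadjusted p under 0.05 and 42.8% were positive, and the lists below are to be read beside these shares. Of 21 tested adherens junction genes, 0 passed, 3 had an unadjusted p under 0.05 and 11 were positive, with a median log2 fold change of 0.00. The smallest p belonged to CTNNBIP1, an inhibitor of beta-catenin, at -0.84 (SE 0.33, adjusted p 0.202), and to the vinculin gene VCL (ENSDARG00000098695), an actin linker, at 0.59 (SE 0.25, adjusted p 0.227). Without WT H replicates 6 and 7, this VCL gene was higher in ASIP at 0.47 (SE 0.11, adjusted p 0.0299). It was the 1 gene of 21 in that list to pass, where 7.88% of all genes passed. Of 22 tested without the 4 libraries with oocyte transcripts, 13 were positive, beside 50.8% of all genes, with a median of 0.18. The other VCL gene (ENSDARG00000044968) was chosen after its values were seen. It had 11.8, 3.54 and 16.4 CPM in ASIP H against 26.2, 21.7, 27.3 and 25.7 in WT H. Complete separation with ASIP H lower was seen for 6.06% of all genes. In M this VCL gene had 18.6, 31.9 and 30.7 CPM in ASIP against 15.3, 11.9, 19.0 and 20.5 in WT.

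Of 7 other desmosome genes, 0 passed, 0 had an unadjusted p under 0.05 and 5 were positive, with a median of 0.33. Values for the plakophilin genes were 1.28 for pkp2 (SE 0.62, adjusted p 0.277) and 0.47 for PKP3 (SE 0.24, adjusted p 0.305). All 7 were positive without WT H replicates 6 and 7, where 50.3% of all genes were. Their median in that fit was 0.29, against 0.00 over all genes, and 0 passed. In the same fit 4 of the 7 were positive within M (median 0.03), beside 48.1% of all genes. Within H all 7 were (median 0.75), beside 51.6% of all genes, with only replicates 5 and 8 left in WT H. Without the 4 libraries with oocyte transcripts, 6 of the 7 were positive for genotype (median 0.32), beside 50.8% of all genes. Among 6 tested partners of Epcam, 0 passed and 1 had an unadjusted p under 0.05. The protease inhibitor gene spint1b was at -0.31 (SE 0.14, adjusted p 0.257). A claudin gene, cldn7b, had a value of -1.53 with an SE of 0.73 and an adjusted p of 0.270.

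Regulators gave the same count. Of 13 tested regulators of epithelial identity, 0 passed, 1 had an unadjusted p under 0.05 and 8 were positive, with GRHL1 at -1.12 (SE 0.43, adjusted p 0.191) and GRHL2 at 1.27 (SE 0.69, adjusted p 0.325). Of 9 tested mesenchymal genes, 0 passed, 1 had an unadjusted p under 0.05 and 3 were positive. The repressor gene snai1a was at -1.04 (SE 0.45, adjusted p 0.232) and the vimentin gene VIM (ENSDARG00000010008) at -0.48 (SE 0.50, adjusted p 0.605). In WT H replicate 6, 1 of the 9 mesenchymal genes was below the range of the other 12 libraries and 2 were above, and in replicate 7 0 were below and 4 above. Of the 13 epithelial regulators 5 were below and 2 above in replicate 7. These counts stand beside 35.5% of all genes below and 36.1% above in replicate 6, and 23.5% below and 25.5% above in replicate 7.

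The genes whose log2 CPM most resembled each member over the 14 libraries were named by Pearson's r, as a description. For cdh17 they were BIN2, FA2H and sult1st5, each at 0.994, and r over the 12 libraries without WT H replicates 6 and 7 was 0.858, 0.891 and 0.880. For pkp3a they included klb and HNF4G, each at 0.994, and 0.850 and 0.911 over the 12. For cdh1 they were ITGB1 (ENSDARG00000053232, 0.989 and 0.835), RASSF6 (0.987 and 0.792) and elf1 (0.987 and 0.783). For epcam they were prr36a (0.990 and 0.943), ctbp2a (0.978 and 0.913) and STK25 (ENSDARG00000039022, 0.976 and 0.860). For nectin3b they were ripor3 (0.992 and 0.966), tle2a (0.989 and 0.950) and sybu (0.983 and 0.957). For ppl they were rtn3 (0.948 and 0.853), zanl (0.945 and 0.909) and TRAK1 (0.944 and 0.842). Values were lower for the catenins but moved little between the 14 and the 12 libraries for the nearest gene: RABL6 (ENSDARG00000077653) had 0.831 and 0.816 with ctnnb1, and PIGU had 0.891 and 0.869 with ctnna1. The next were IRF2BP1 (0.810 and 0.803) and ube2nb (0.807 and 0.809) for ctnnb1, and thfp5 (0.883 and 0.898) and cfap65 (0.869 and 0.776) for ctnna1. Among members themselves, cdh1 and cdh17 had an r of 0.973 over 14 libraries and 0.462 over 12, and cdh1 and epcam of -0.885 and -0.326. The libraries share 1 scaling.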

How the data were processed

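Poly-A RNA of zebrafish intestine was measured in 14 libraries. The deposited table holds raw read counts per gene by the authors, whole and not normalized. The authors' deposited FPKM columns equal those counts divided by gene length and column total, so they were used for levels between genes only. The submitters' processing notes name featureCounts 1.6.3, STAR 2.7.3a, edgeR and FastQC, and the builds GRCz11, GRCm38.p6 and mm10 with no role for each. No source used here gives the strand setting of the counting. Per the labels' protocols the kit was stranded.

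Symbols came from the supplied name table. Members and lists were chosen with earlier results of these data known. List genes were matched by symbol or by the human-style symbol without its a or b ending. Tests used edgeR 4.0.16 in R 4.3.3 on the deposited counts: filterByExpr on 4 groups (18619 genes kept), TMM scaling, 1 mean per group over all 14 libraries, glmQLFit and glmQLFTest, Benjamini-Hochberg, threshold 0.05, for 5 comparisons. Positive log2 fold changes are higher in ASIP, or in H. The SE is the absolute log2 fold change divided by the square root of F and restates the test; intervals are 95%. CPM used TMM-scaled totals, and log2 CPM a prior count of 2. Alternatives were DESeq2 1.42.0, its size factors, no filter, each letter alone, each library left out, and WT H replicates 6 and 7 left out; leaving out the 4 libraries with oocyte transcripts, and scaling by totals, were added after seeing the data. From each other junction or regulator list the text names up to 4 passing genes, or the 2 with the smallest p where none passed; for likeness, the 3 genes nearest by r to each of the 8 members found by symbol, of which 1 is not reported here. Genes outside this rule are said to be chosen after their values were seen. The test code was tested on simulated data.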

Additional observations from a re-analysis of the deposited data

How the results depend on the processing

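No paired analysis was possible because the groups share no replicate number. Under DESeq2 the number of members called was 2 for genotype, 3 for genotype in H and 1 for H against M, in place of 0; leaving out each library in turn gave 0 to 2 for genotype in H, the 2 arising without WT H replicate 5, and 0 in the other 4 comparisons. Over all genes, the number called then ran from 483 (without ASIP M replicate 9) to 1435 (without WT H replicate 6) for genotype, 63 to 486 (the same 2 libraries) in M, 77 (without ASIP H replicate 16) to 1034 (without WT H replicate 5) in H and 0 to 173 (without WT H replicate 5) for H against M. The cause was not tested. Changes of sign are listed here for the genotype comparisons of the 12 genes, and for epcam, nectin3b and ppl in the other comparisons. Without WT H replicates 6 and 7, genotype was -0.10 for cdh1 and -0.016 for JUP (ENSDARG00000070787), and genotype in H was 0.025 for ctnnb1, -0.12 for pkp3a and 0.11 for JUP (ENSDARG00000059067). The fit without the 4 libraries with oocyte transcripts keeps WT H replicate 5 alone in its group. There genotype was -0.19 for cdh1, -0.057 for pkp3a, -0.060 for JUP (ENSDARG00000070787) and -0.027 for DSP (ENSDARG00000022309). Genotype in H was -0.16 for cdh1, 0.073 for ctnnb1, -0.31 for pkp3a and 0.54 for JUP (ENSDARG00000059067). H against M was -0.016 for epcam, -0.81 for nectin3b and 0.062 for ppl. Genotype in H of ctnnb1 was 0.017 without the filter and 0.038 in the H libraries alone. With each library left out, genotype ran from -0.038 to 0.24 for cdh1, -0.015 to 0.072 for ctnnb1 and -0.089 to 0.57 for JUP (ENSDARG00000059067). In M it ran from -0.14 to 0.28 for epcam, -0.44 to 0.27 for nectin3b, -0.069 to 0.33 for ppl and -0.045 to 0.13 for ctnnb1. In H it ran from -0.045 to 0.075 for ctnnb1 and -0.88 to 0.0085 for JUP (ENSDARG00000059067). The genotype effect in H minus that in M ran from -0.15 to 0.060 for ctnnb1, -0.089 to 0.25 for ctnna1 and -0.050 to 0.75 for DSP (ENSDARG00000076673). H against M ran from -0.013 to 0.75 for JUP (ENSDARG00000059067). In that procedure epcam kept its sign for genotype, -2.10 to -0.98, and nectin3b, -3.43 to -1.29, both ends nearest 0 without WT H replicate 6. With 3 or 4 libraries a group and low counts of nectin3b and JUP (ENSDARG00000059067), small differences in these genes were not detectable.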
